A study of Homo sapiens with 4 samples.

Results

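The HSP70 family is a set of ATP-driven chaperones, and 10 of its genes were followed here: HSPA1A, HSPA1B, HSPA1L, HSPA2, HSPA4, HSPA5, HSPA8, HSPA9, HSPA13 and HSPA14. They were taken by name from a table of 55764 gene names, and the family was selected on the FPKM values of the ETS1 and control libraries, because HSPA1A was far lower with ETS1 while its twin HSPA1B hardly moved. Their values in that comparison are therefore a description, and no p-value is given for a member. HSP70 proteins bind short hydrophobic stretches of unfolded proteins, hold them while ATP is hydrolysed and release them when the nucleotide is exchanged. J-domain proteins bring clients and start the cycle, and exchange factors such as the BAG and HSP110 proteins end it. In the cytosol the stress-inducible forms are switched on by heat shock factor 1, and related members serve the endoplasmic reticulum (ER) and the mitochondria.

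The cells were TE5, an established line from a human oesophageal squamous cell carcinoma, infected with lentivirus made in HEK293T cells. The cells of 2 libraries stably carried a CMV-driven vector for the transcription factor ETS1. Those of the 2 controls held the empty backbone and have a genotype labelled WT. Bulk RNA was sequenced, and levels are in FPKM, which divides a gene's fragments by its length and by the library's total. Nothing in the labels says that libraries 1 and 2 of a group came from separate infections or cultures, or whether the cells were a pool or a clone, so all tests measure only the spread between these libraries.

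The reads recovered from the table came to 40356723 and 44119604 in the controls and 57269983 and 56502874 in the ETS1 libraries. ETS1 itself was at 0.500 ± 0.0129 FPKM (SD, n = 2) with the empty backbone and at 1.85 ± 0.0176 FPKM (SD, n = 2) with the ETS1 vector. Of the squamous markers KRT5, KRT14, KRT6A, TP63 and SOX2, 4 were listed at 0 in each control, and their highest value in any library was 0.0165 FPKM, so the keratins of squamous epithelium were absent or nearly so. SOX2 went from 2.92 ± 0.288 to 3.67 ± 0.208 FPKM (SD, n = 2 each; limma adjusted p 0.0301), a call that was lost under 6 of 13 alternatives, among them leaving out control 1 (adjusted p 0.0789), ETS1 library 1 (0.0550) or ETS1 library 2 (0.132). Each fit without 1 library leaves a group with a single library, which is assumed to vary like the other group. Of the 4 simple epithelial markers KRT8, KRT18 and EPCAM reached a mean of 1 FPKM. With ETS1 the mean of KRT8 was 68.1% higher and that of the mesenchymal marker VIM 31.2% higher, whereas KRT18 was 19.9% lower (limma adjusted p 0.000591, 0.000679 and 0.00223). The VIM log2 difference of 0.39 was 0.65 under quantile normalization. EPCAM had a mean 25.2% lower and was not called (limma adjusted p 0.0525), but it was called under 5 of 13 alternatives. CDH1, under the filter and not tested, went from a mean of 0.569 to 0.998 FPKM. The 5 fibroblast markers summed to 2.11 to 2.23 FPKM in the controls and 3.02 to 3.08 FPKM with ETS1, nearly all of it COL1A1. PTPRC, a marker of leukocytes in general, was at most at 0.0117 FPKM in any library. The part of these markers in the results was not tested. In bulk RNA, fewer cells that express a gene and less RNA per cell cannot be told apart.

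HSPA1A and HSPA1B encode the same inducible cytosolic HSP70 protein from neighbouring intronless genes, and their sequences show what a read can tell apart. On GRCh38, in GENCODE 29, HSPA1A lies on chromosome 6 from 31815464 to 31817946 and HSPA1B from 31827735 to 31830255, both on the plus strand. Over the 1923 coding bases the genes differed at 4 positions, an identity of 99.8%, and all 4 left the amino acid unchanged. Counted from the first base of the start codon, with HSPA1A first, the substitutions were G1710T, G1860C, C1905T and A1920G. The last 3 of them fall in the following 90 coding bases, shown because they are among the few coding positions that separate the twins (capitals mark the differing bases; GENCODE 29, GRCh38; HSPA1A chr6:31817587-31817676 and HSPA1B chr6:31829781-31829870, both plus strand).
HSPA1A coding: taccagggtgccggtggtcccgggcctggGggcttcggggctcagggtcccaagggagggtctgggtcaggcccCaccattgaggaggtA
HSPA1B coding: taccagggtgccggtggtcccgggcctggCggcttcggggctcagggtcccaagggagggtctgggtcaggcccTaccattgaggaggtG

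Upstream of the genes the twins also resembled each other. The next pair gives the 171 bases before the HSPA1A start of GENCODE 29 and the aligned bases of HSPA1B, from RefSeq's promoter table (GRCh38.p14; HSPA1A chr6:31815293-31815463 and HSPA1B chr6:31827489-31827659, plus strand). They are shown because each carries a core of the heat shock element. Capitals mark the bases that differ.
HSPA1A upstream: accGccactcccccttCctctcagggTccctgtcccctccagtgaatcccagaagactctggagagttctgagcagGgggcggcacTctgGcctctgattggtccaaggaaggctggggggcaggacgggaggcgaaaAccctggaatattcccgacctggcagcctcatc
HSPA1B upstream: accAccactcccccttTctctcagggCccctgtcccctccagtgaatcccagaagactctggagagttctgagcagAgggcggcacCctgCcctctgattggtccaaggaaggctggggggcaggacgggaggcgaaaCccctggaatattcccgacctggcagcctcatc

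The stretches differed at 7 of 171 aligned bases, an identity of 95.9%, with no gaps. Both contain GAATATTC, a core of the heat shock element to which heat shock factors bind, beginning 106 bases before the RefSeq start of HSPA1A and 105 bases before that of HSPA1B. None of the 7 differences fell inside that core or inside the CCAAT box upstream of it.

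Most of the 2 transcripts could not be told apart by a short read. Of the 2384 windows of 100 bases in the HSPA1A transcript, 1666 (69.9%) were found letter for letter in HSPA1B, and the reverse share was 68.8%. With windows of 50 bases the shared part of HSPA1A was 72.6%, and with 150 bases it was 67.1%. The longest common stretch covered 1715 bases, from 6 bases before the start codon into the last part of the coding sequence. The windows particular to each gene therefore lay in the untranslated ends and around the 4 coding differences. How the authors counted reads that match both genes is not given in the sources used here. The gene lengths by which their FPKM divides, inferred from the tables, were about 2441 bases for HSPA1A and 2528 bases for HSPA1B, close to the full transcripts of 2483 and 2521 bases. The values of both genes are therefore uncertain, as is their ratio to other genes.

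**Figure D1:**
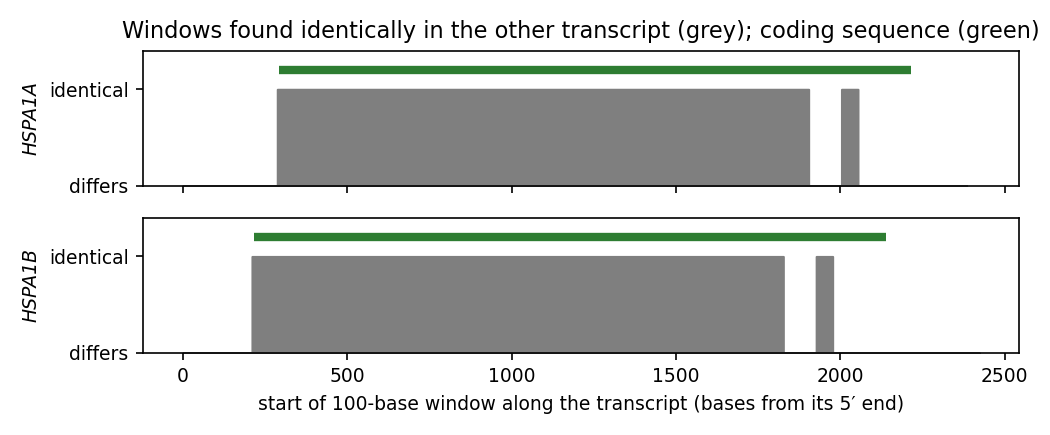
Position along the HSPA1A (top) and HSPA1B (bottom) transcripts of GENCODE 29, in bases from the 5′ end, with grey where the 100-base window starting there occurs identically in the other transcript and a green bar for the coding sequence. The grey covers 69.9% of the HSPA1A windows and 68.8% of the HSPA1B windows, and the white parts lie at the transcript ends and near the end of the coding sequence.

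HSPA1A was listed at 20.1 and 20.6 FPKM in the controls and at 1.64 and 1.75 FPKM in the ETS1 libraries. The reads behind these values were 1976 and 2217 against 230 and 241. The mean went from 20.3 ± 0.373 to 1.70 ± 0.0721 FPKM (SD, n = 2 each), which is 11.99-fold lower, or 91.7% lower. Both ETS1 libraries stood far under both controls, and each pair of libraries was close together. On the log2(FPKM + 1) scale, which understates changes at low FPKM, the difference was -2.98, and it ranked 1 from the lowest of the 14306 genes tested. Without that pseudocount of 1 FPKM, the log2 ratio of the FPKM means was -3.58, and by that ratio HSPA1A ranked 3, with 2 tested genes lower. In the authors' deposited table the log2 fold change was -3.60.

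HSPA1B was listed at 34.3 and 33.5 FPKM in the controls and at 29.5 and 31.1 FPKM in the ETS1 libraries, from 3496 and 3738 against 4275 and 4446 reads. The means were 33.9 ± 0.532 and 30.3 ± 1.13 FPKM (SD, n = 2 each), 10.6% lower with ETS1. The groups did not overlap, and the gap between them was wider than the range within either. The log2 difference of -0.16 shrank to -0.04 under quantile normalization. HSPA1B stood above HSPA1A in every library, and by far the most in the ETS1 libraries.

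Since it is not known how reads that match both genes were counted, the pair was also taken as 1 feature. If such reads were left out, adding the rows does not recover them. Added together, the twins stood at 54.3 and 54.1 FPKM in the controls and at 31.2 and 32.9 FPKM in the ETS1 libraries, 41.0% lower, with a log2 difference of -0.74. The values that chose the family also set the direction of this sum and of the shares that follow, which describe the pair and support nothing. HSPA1A took 36.1% of the pair's reads in control 1 (95% Wilson interval 34.8 to 37.4%) and 37.2% in control 2 (36.0 to 38.5%). It took 5.11% in ETS1 library 1 (4.50 to 5.79%) and 5.14% in ETS1 library 2 (4.55 to 5.81%). The intervals cover counting error only. The share was alike within each group.

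**Figure D2:**
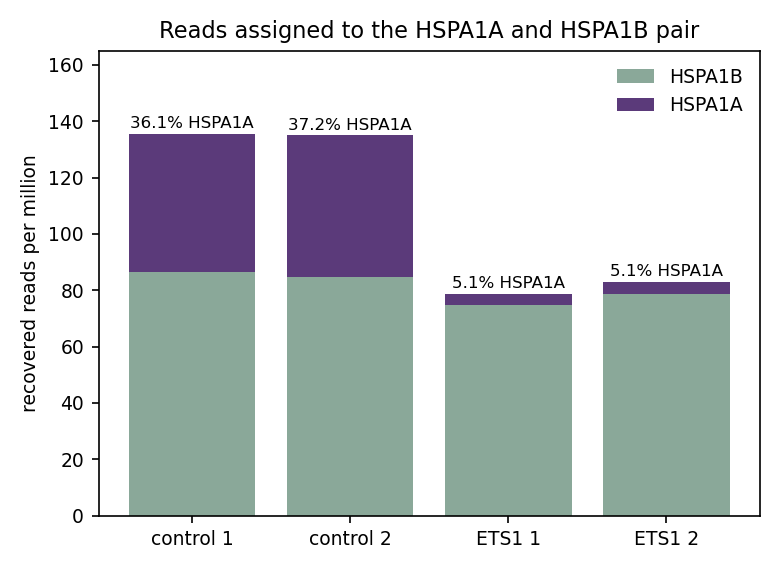
Reads recovered for HSPA1A (purple) and HSPA1B (green) scaled to the library's recovered reads (RPM), stacked, in each of the 4 libraries, with the HSPA1A share above each bar. The HSPA1B part is of similar height in all 4 bars, and HSPA1A goes from 36.1% and 37.2% of the pair in the controls to 5.11% and 5.14%.

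HSPA1L encodes a related HSP70 that is known mainly from testis, and it starts head to head with HSPA1A on the opposite strand. By RefSeq the starts are separated by 259 bases, so the GAATATTC core lies between the 2 genes. HSPA1L was listed at 0.885 and 0.810 FPKM in the controls and at 0.571 and 0.760 FPKM in the ETS1 libraries, from 94 and 94 against 86 and 113 reads. It was the lowest of the 10 members and the only one whose mean was under the filter of 1 FPKM. Its mean was 21.5% lower with ETS1, and the ETS1 libraries differed from each other by more than the distance between the nearest libraries of the groups.

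Of the members that cells make without stress, HSPA8 is the constitutive cytosolic form, which also serves clathrin uncoating and chaperone-mediated autophagy. It was listed at 82.7 and 82.1 FPKM in the controls and at 86.5 and 84.7 FPKM in the ETS1 libraries, 3.92% higher. That is the smallest difference among the 10 members, and the log2 difference of 0.05 became 0.19 under quantile normalization and 0.01 under median-of-ratios scaling. HSPA2, a form needed in male germ cells, was listed at 1.60 and 2.03 FPKM in the controls and at 2.32 and 2.30 FPKM in the ETS1 libraries. Its mean was 27.3% higher with ETS1, but the controls were themselves apart by more than the distance from the higher control to the ETS1 libraries. The log2 difference of 0.24 was 0.13 without control 1 and 0.35 without control 2.

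HSPA5, or BiP, is the HSP70 of the ER lumen and a sensor of unfolded proteins there. It was the most abundant member, at 240.4 and 242.8 FPKM in the controls and at 210.5 and 202.5 FPKM in the ETS1 libraries. Both ETS1 libraries were under both controls, with a mean 14.5% lower and a log2 difference of -0.23. This value depended on scaling: it was -0.03 under quantile normalization and -0.13 with the median of chromosome 9, which holds the gene, removed. The 432 tested protein-coding genes of that chromosome had a median difference of -0.09, and the part of this in the HSPA5 value was not tested. HSPA13, a microsomal member that lacks the usual substrate-binding part, went the other way. It was listed at 15.8 and 14.0 FPKM in the controls and at 21.0 and 23.0 FPKM in the ETS1 libraries, 47.5% higher, with a log2 difference of 0.53. It was the member with the largest upward difference, and the groups stood well apart.

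HSPA9, or mortalin, works in the mitochondrial matrix, where it helps to pull in and fold imported proteins. It was listed at 120.8 and 121.8 FPKM in the controls and at 101.2 and 100.2 FPKM in the ETS1 libraries, 17.0% lower. The libraries of each group lay close together and the groups were well separated, although the log2 difference of -0.27 was -0.10 under quantile normalization. HSPA4 is a member of the HSP110 branch, which exchanges the nucleotide of other HSP70s. It was listed at 44.5 and 44.2 FPKM in the controls and at 36.6 and 36.4 FPKM in the ETS1 libraries, 17.6% lower, with a log2 difference of -0.27 that was -0.17 under quantile normalization. HSPA14 acts at the ribosome together with the J-domain protein DNAJC2. It was listed at 29.3 and 28.05 FPKM in the controls and at 24.0 and 23.4 FPKM in the ETS1 libraries, 17.3% lower. GENCODE 29 holds 2 genes of the name HSPA14, so which of them the row measures is uncertain. HSPA4, HSPA9 and HSPA14 were thus lower by similar amounts, and in each of them the groups did not overlap.

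**Figure D3:**
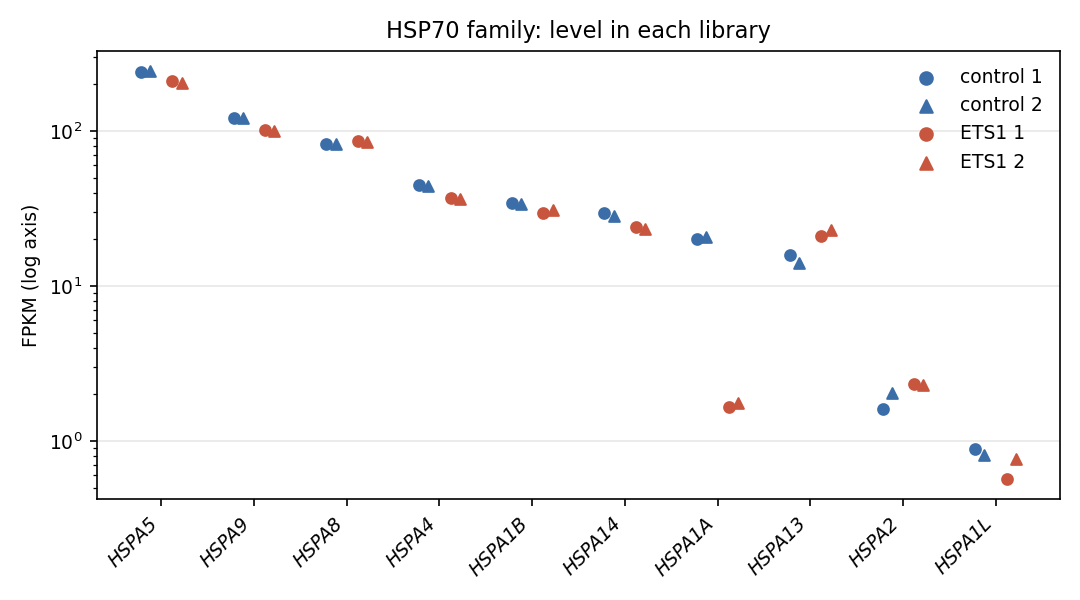
FPKM of the 10 HSP70 members on a log axis, ordered by their mean in the controls, with 1 point per library (blue controls, red ETS1, circles for replicate 1 and triangles for replicate 2). HSPA1A is the only member whose red points fall a decade below its blue points, from 20.1 and 20.6 to 1.64 and 1.75 FPKM, and HSPA13 is visibly higher in red.

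In the controls the order of levels per length was HSPA5, HSPA9, HSPA8, HSPA4, HSPA1B, HSPA14, HSPA1A, HSPA13, HSPA2 and HSPA1L. No neighbours in that order overlapped between their libraries. With ETS1 the order was the same for the first 6, and HSPA13 then came close under HSPA14 (highest value 23.0 against lowest 23.4 FPKM). HSPA1A moved from rank 7 to rank 9, under HSPA2. The 10 members summed to 590.3 and 589.9 FPKM in the controls and to 513.9 and 506.2 FPKM with ETS1, 13.6% lower. HSPA5, HSPA8 and HSPA9 together made up 75.5% of that sum in the controls and 77.0% with ETS1, whereas the twins went from 9.19% to 6.28%. The order, the sum and the shares depend on the gene lengths by which FPKM divides. The inferred lengths were about 4858 bases for HSPA8 and 4818 for HSPA14, against 2306 and 1904 in their GENCODE 29 transcripts with the longest coding sequence. For HSPA2 the inferred length was shorter, about 2849 against 5400 bases. How the order would stand with other lengths was not tested.

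Of the 10 members, 9 passed the filter, and limma called 6 of them lower and 1 higher at an adjusted p under 0.05. Over all 14306 genes tested it called 59.1%, with 28.4% lower and 30.7% higher. Which direction held more genes depended on the setting: 4394 were higher and 4057 lower, but 3769 higher and 4561 lower under median-of-ratios scaling, and 2562 higher and 3000 lower among genes with a mean of at least 5 FPKM. For all 10 members the ETS1 values lay outside the range of the controls, 7 under it and 3 over it, where 82.0% of all tested genes did so, 38.9% under and 43.1% over. The median log2 difference was -0.23 over the 9 members and 0.02 over all tested genes. These counts describe members that this contrast chose, and nothing is read from them.

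Promoter letters were compared for the 9 members matched by symbol in RefSeq's table of 250 bases before to 50 bases after each start (GRCh38.p14). The heat shock element was searched as the cores GAANNTTC and TTCNNGAA, each of which reads the same on both strands. Only exact matches to the fixed letters counted, so elements with other letters were not found. The cores can overlap each other, and their GAA can overlap the GGAA of an ETS site. At least 1 core was found in HSPA1A, HSPA1B, HSPA1L, HSPA8 and HSPA9, and in 13.5% of 35116 promoters of the same length. HSPA8 held 4 cores in 2 overlapping pairs, GAAAGTTC with TTCCAGAA from 230 bases before its start and TTCTGGAA with GAAGGTTC from 55 bases before it. The HSPA1A, HSPA1B and HSPA1L windows each held 1, and for HSPA1A and HSPA1L it is the same DNA.

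The ER stress element, a CCAAT box followed at a fixed spacing by CCACG on either strand, was found in HSPA5 alone, as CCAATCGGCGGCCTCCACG from 66 bases before the start, and in 0.0769% of all promoters. The CCAAT box, which that element contains, was found in HSPA1A, HSPA1B, HSPA1L, HSPA2, HSPA5 and HSPA8 and in 34.6% of all promoters. TATAAA was found in HSPA1A, HSPA1B and HSPA1L, for the last on the opposite strand, and in 11.5% of all promoters. The HSPA1A and HSPA1L windows share 241 bases. The exact letters CCGGAAGT, a form of the ETS site, were found in 0 of the 9 and in 4.14% of all promoters. Sites with other letters around GGAA were not searched. A match is a run of letters and not a measured binding site.

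The position of HSPA1A on chromosome 6 was compared with its neighbours. Within 250 kb of its start, 22 other genes apart from the twins were tested, of which limma called 8 lower and 5 higher, with a median log2 difference of -0.05. Over all tested genes it called 59.1%, so the count is near the background. The median of the 586 tested protein-coding genes on chromosome 6 was 0.08. C6orf48, a host gene of small nucleolar RNAs just beyond HSPA1B, had the lowest value of these neighbours. It fell from 179.6 ± 2.47 to 130.0 ± 0.0412 FPKM (SD, n = 2 each), by 0.46 on the log2 scale (limma adjusted p 0.000557), or by 0.25 under quantile normalization. LSM2, which encodes an RNA-binding ring protein and lies beyond HSPA1L, fell by 0.35 on the log2 scale (SE 0.025, limma adjusted p 0.000766), or by 0.20 under quantile normalization. VARS, the valyl-tRNA synthetase gene, had a difference of -0.01 (limma adjusted p 0.835) whose sign depended on the scaling and on single libraries. EHMT2, a histone methyltransferase gene, differed by 0.04 (limma adjusted p 0.418), and its sign turned when the chromosome median was removed. NEU1, a lysosomal sialidase gene, rose by 0.12 (limma adjusted p 0.0393) but lost the threshold under 9 of 14 alternatives, among them no filter (0.12, adjusted p 0.0942) and leaving out control 2 (0.09, adjusted p 0.111), ETS1 library 1 (0.12, adjusted p 0.166) or ETS1 library 2 (0.13, adjusted p 0.130). SLC44A4 was at most at 0.108 FPKM in any library and was not tested. No tested neighbour was near the HSPA1A value of -2.98.

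**Figure D4:**
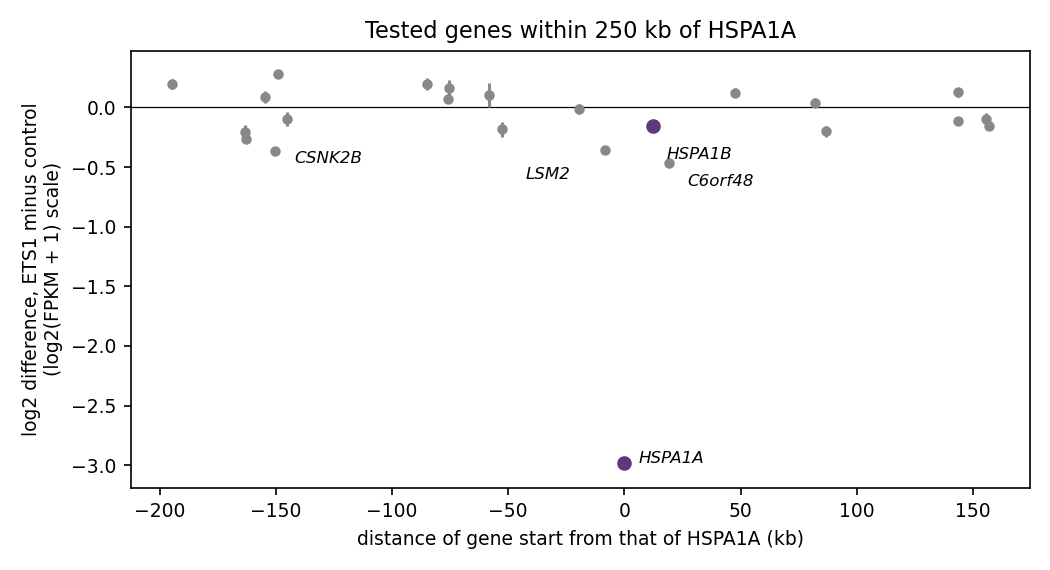
Difference on the log2(FPKM + 1) scale, ETS1 minus control, for tested genes whose start lies within 250 kb of that of HSPA1A, against distance in kb, with bars for the standard error of limma's fit. HSPA1A is at -2.98, HSPA1B at -0.16, and the other 22 genes lie between -0.46 and 0.28.

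The genes whose profile over the 4 libraries lay closest to that of HSPA1A were looked up by Euclidean distance between centred log2(FPKM + 1) values. They were SOHLH2 (distance 0.996), the small nuclear RNA row RNU6-353P (1.11) and the pseudogene TECRP1 (1.16). Their log2(FPKM + 1) differences were -1.99, -1.90 and -1.98, smaller on that scale than that of HSPA1A. By the ratio of FPKM means SOHLH2 was lower by more, with 3.18 ± 0.0352 FPKM in the controls against 0.0529 ± 0.0307 FPKM with ETS1 (SD, n = 2 each), a log2 ratio of -5.91. With 4 libraries this distance mostly ranks the size of the difference. Rows named as pseudogenes of a member were also examined, since they can take reads from their parents. There were 18, of which 17 were copies of HSPA8, and none reached a mean of 1 FPKM. The highest was HSPA8P13 at a mean of 0.707 FPKM and far under HSPA8.

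HSP70-related genes outside the 10 members were next. HSPA6, the strictly heat-inducible form, was listed at 0.140 and 0.154 FPKM in the controls and at 0.414 and 0.526 FPKM in the ETS1 libraries. It was thus higher with ETS1 but under the filter in every library, and it was not tested. HSPH1, the inducible HSP110 exchange factor, fell from 37.1 ± 0.166 to 26.6 ± 0.0233 FPKM (SD, n = 2 each), by 0.47 on the log2 scale (limma adjusted p 0.000539). HYOU1, the HSP110 of the ER, rose from 9.80 ± 0.339 to 12.6 ± 0.413 FPKM (SD, n = 2 each), by 0.33 (limma adjusted p 0.00285). HSPA4L differed by -0.02 (limma adjusted p 0.692), and its sign turned without ETS1 library 1. It passed as lower with the chromosome median removed (-0.13, adjusted p 0.0415). HSPA12A differed by 0.08 (limma adjusted p 0.168). HSPA7 and HSPA12B were at most at 0.335 FPKM in any library.

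The partner genes of HSP70 came from 6 lists with 75 genes in all, of which 71 were tested. limma called 18 higher and 25 lower, or 60.6% of them, against 59.1% of all tested genes, and their median log2 difference was 0.05 against 0.02. Under quantile normalization the split was 29 higher and 22 lower of 71, where 4237 genes were higher and 3898 lower of 14306, so the partners were there called at a larger share than all genes. That difference in share was not tested.

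Heat shock factors and classic heat shock targets went both ways, with 3 higher, 5 lower and 6 not called of 14 tested. HSF1, the main activator of the heat shock response, fell from 29.1 ± 0.493 to 18.5 ± 0.0241 FPKM (SD, n = 2 each). On the log2 scale HSF1 fell by 0.63 (limma adjusted p 0.000476). HSF1 lies on chromosome 8, where the 381 tested protein-coding genes had a median of -0.15, and the part of this in the HSF1 value was not tested. HSF2, a related factor, rose by 0.31 (limma adjusted p 0.00311). The small heat shock protein HSPB8 rose by 0.74 (limma adjusted p 0.00167), and AHSA1, an HSP90 activator, fell by 0.45 (limma adjusted p 0.00161). HSP90AA1, the inducible cytosolic HSP90, differed by 0.06 (limma adjusted p 0.118) and passed under quantile normalization. HSPB1 differed by 0.13 (limma adjusted p 0.0576) and passed under 4 of 14 alternatives, among them leaving out control 2 (0.18, adjusted p 0.0116).

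J-domain co-chaperones had 2 called higher, 2 lower and 5 not called of 9 tested. DNAJB1, the classic partner of inducible HSP70, rose from 23.8 ± 0.256 to 28.98 ± 0.505 FPKM (SD, n = 2 each), by 0.28 on the log2 scale (limma adjusted p 0.00181). DNAJB4 rose by 0.43 (limma adjusted p 0.00198). DNAJC7 fell by 0.17 (limma adjusted p 0.00788) and lost the threshold without ETS1 library 1, with a difference of -0.16 (adjusted p 0.0593). Exchange factors and regulators had 2 higher, 6 lower and 4 not called of 12 tested. HSPBP1 fell by 0.52 (limma adjusted p 0.00079) and BAG1 by 0.41 (limma adjusted p 0.00274), and HSPH1 is in this list. BAG3, an HSF1 target that links HSP70 to autophagy, rose by 0.18 (limma adjusted p 0.00542), or by 0.12 with the chromosome median removed. The ubiquitin ligase STUB1 differed by 0.10 (limma adjusted p 0.247) and passed without control 2 (0.20, adjusted p 0.0144).

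The ER list had 9 higher, 3 lower and 11 not called of 23 tested. DNAJB9, a J-domain protein induced by ER stress, rose by 0.66 (limma adjusted p 0.00378) and DNAJC3 by 0.39 (limma adjusted p 0.00263). SDF2L1 fell by 0.53 (limma adjusted p 0.000803) and DDIT3, an ER stress transcription factor, by 0.18 (limma adjusted p 0.00486), where the DDIT3 difference was -0.0959 under quantile normalization. HSP90B1, the ER HSP90, differed by 0.07 (limma adjusted p 0.0771) and passed under quantile normalization and under voom on recovered reads. In the mitochondrial list 2 were higher, 8 lower and 2 not called of 12 tested, with a median of -0.28. HSPE1 and HSPD1, the chaperonin pair of the matrix, fell by 0.91 (limma adjusted p 0.000737) and 0.50 (limma adjusted p 0.000534), the latter by 0.30 under quantile normalization. The iron-sulphur co-chaperone HSCB fell by 0.57 (limma adjusted p 0.00181). DNAJA3 and GRPEL1, a J-domain protein and an exchange factor of HSPA9, fell by 0.36 and 0.30 (limma adjusted p 0.00148 and 0.00372). The 2 called higher, named after their values were seen, were the disaggregase CLPB, which rose by 0.24 (limma adjusted p 0.00404), and GRPEL2, the other exchange factor, by 0.18 (limma adjusted p 0.0399). The GRPEL2 call was lost under 8 of 14 alternatives, among them leaving out control 2 (0.11, adjusted p 0.0859), ETS1 library 1 (0.21, adjusted p 0.0738) or ETS1 library 2 (0.15, adjusted p 0.161), and the difference was 0.0910 with the chromosome median removed. DNAJC2, the partner of HSPA14, fell from 14.7 ± 0.12 to 9.31 ± 0.348 FPKM (SD, n = 2 each), by 0.61 (limma adjusted p 0.000631).

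**Figure D5:**
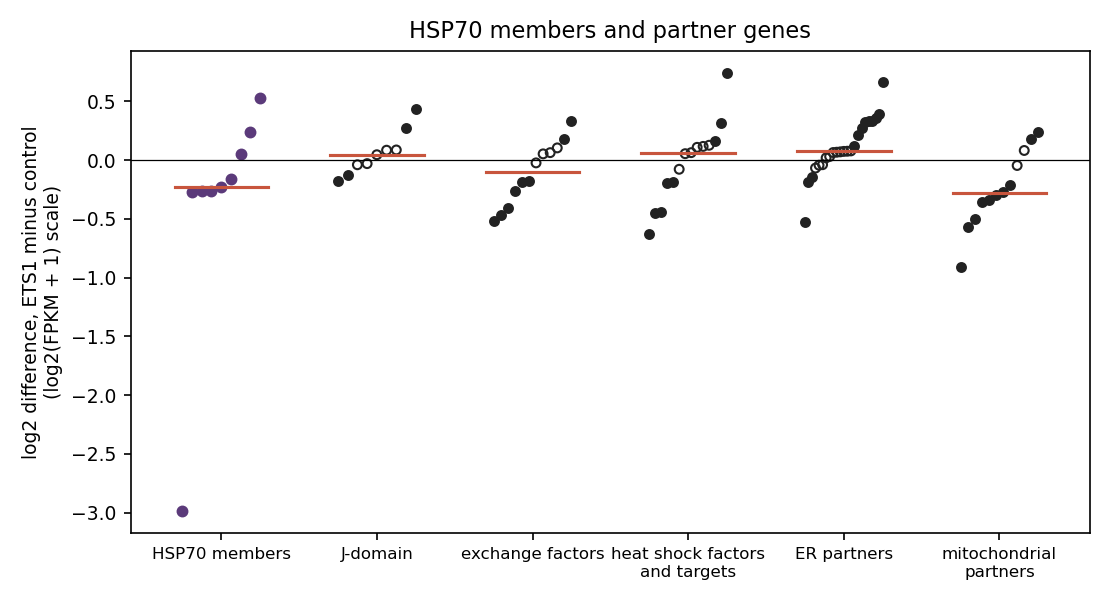
Difference on the log2(FPKM + 1) scale, ETS1 minus control, for the 9 HSP70 members that passed the filter (purple, no call shown) and for tested partner genes by list, with filled points for genes called by limma, open points for genes not called and a red line at the median. The mitochondrial list has its median at -0.28 and the ER list at 0.07, and HSPA1A stands alone at -2.98.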

How the data were processed

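Levels are the authors' deposited FPKM per gene. HISAT2, HTSeq, DESeq2 and the builds hg38 and GRCh38 are named in the submitters' processing notes without versions or roles. Their annotation, strand setting and treatment of reads that match several genes are not given in the sources used here. A second deposited table gives the authors' own comparison of 16652 genes: a mean normalized count per gene (a signal averaged by the authors), log2 fold changes, p-values and adjusted p-values, per the file headers. Whether its fold changes were shrunk is not stated. Reads were recovered from FPKM and that mean: 99.5% of values fell within 0.05 of a whole number. limma (3.58.1) was fitted to log2(FPKM + 1) for 14306 genes with a mean of at least 1 FPKM, group term only, two-sided, with an intensity trend, Benjamini-Hochberg adjustment over all of them and a threshold of 0.05. An exact permutation test of 2 against 2 libraries cannot go below 0.333. The fit was tested only on simulated data in which few genes changed, and by more than most genes named here. Chromosomes and neighbours come from GENCODE 29 by gene name, which may not be the authors' annotation. Members, partner lists and motifs were chosen with earlier results of these data known. The text names all members, ETS1, HSP70 genes outside them, neighbours, pseudogenes of at least 1 FPKM, the 3 nearest profiles, a fixed set of partners and the 3 called genes with the largest change in each list; HSPA8P13, CLPB, GRPEL2 and the cell markers were named after their values were seen. Replicate numbers were not taken to pair libraries (Pearson r of replicate deviations across genes -0.05). The leukocyte marker list is not reported in full here.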

Additional observations from a re-analysis of the deposited data

How the results depend on the processing

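The HSPA1A difference of -2.98 was -3.51 with a pseudocount of 0.1 FPKM, -3.58 with voom on recovered reads, -3.60 in the authors' deposited table, -3.05 with the chromosome median removed (chosen after seeing the data) and -0.74 when the twins were added; leaving out 1 library gave -3.01 to -2.96. HSPA1B (-0.16) was -0.0395 under quantile normalization and -0.22 with the chromosome median removed, and -0.19 to -0.12 without 1 library. The summed twins (-0.74) were -0.78 under median-of-ratios scaling, -0.62 under quantile normalization and -0.81 with the chromosome median removed, and -0.78 to -0.71 without 1 library. They have no value in the authors' deposited table. Genes called higher (4394) were 2562 at a mean FPKM of at least 5, where 8215 genes were tested, and 2754 to 3989 without 1 library, lowest without ETS1 library 2. Partner genes called higher (18) were 29 under quantile normalization. With the replicate block, which leaves 1 residual degree of freedom, 3712 genes were called higher and 3571 lower, and 16 and 24 partners; among named genes NEU1 and GRPEL2 lost their calls (adjusted p 0.0644 and 0.0701). Reversals were HSPA4L, from -0.0755 to 0.0289 without 1 library (above 0 without ETS1 library 1), VARS under quantile normalization (0.0212) and from -0.0590 to 0.0360 without 1 library (above 0 without control 2 or ETS1 library 1), and EHMT2 with the chromosome median removed (-0.0269). The causes were not tested. Depth limits HSPA1L, with 86 to 113 reads in a library, HSPA2, with 184 to 379, and HSPA1A in the ETS1 libraries, with 230 and 241.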
